A study of Mus musculus with 36 samples.

Results

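The 50 genes described here drive DNA replication and cell division. They were taken by name: a row of the deposited count table was a member when its gene symbol stood on a list of replication and mitosis genes, and all 50 names were found among the 18049 genes of the table. The rule used gene names alone. Expression was measured by RNA sequencing of whole kidneys from C57BL/6 mice on the day of birth (P0) and at 3 and 12 days of age (P3 and P12), with 3 libraries in each of 12 groups and 36 libraries in all. The 4 genotypes were wild type (WT), mice homozygous for the RC allele of Pkd1 (Pkd1-RC/RC), mice homozygous for a Pkhd1 null allele (Pkhd1-/-) and mice carrying both homozygous mutations (digenic). The product of Pkd1 is polycystin-1, whose loss causes most dominant polycystic kidney disease, and the RC point mutation leaves it partly functional. The product of Pkhd1 is fibrocystin, whose loss causes the recessive form of the disease. Both mutations are in the germline, so every cell of a mutant kidney carried them, and the labels name no treatment. The sample titles carry a separate identifier for each library. Each was taken as 1 mouse, and p-values measure only the spread between these samples.

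As background, a cell leaves its resting state when D-type cyclins bound to Cdk4 or Cdk6 inactivate the retinoblastoma protein and free the E2F factors, which switch on genes for DNA synthesis. Origins of replication are then loaded with the Mcm helicase by Cdc6 and Cdt1, and after synthesis the B-type cyclins with Cdk1 start mitosis, under the control of Plk1, the Aurora kinases and the spindle checkpoint. In the newborn mouse kidney new nephrons are still forming and tubules are lengthening, and proliferation of tubule cells is a known feature of polycystic kidneys.

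Promoters of the members are shown for the sequence elements that such genes are known to carry. The cell cycle homology region (CHR) and the CCAAT box are typical of genes switched on in G2 and mitosis, and E2F sites are typical of replication genes. The RefSeq promoter table for GRCm38.p6 held 39 of the 50 members. Those without an entry were Ccna2, Ccne2, Ccnd1, Ccnd2, Cdc25c, Aurkb, Kif20a, Foxm1, Mcm4, Gins2 and Tpx2. The 250 bases before each listed start were searched on both strands for CHR (TTTGAA or TTTAAA), for the CCAAT box (CCAAT) and for an E2F site (TTTCCCGC, TTTCGCGC, TTTGCCGC or TTTGGCGC). Matches to 1 motif may overlap each other. For the 5 members with more than 1 listed start (Ccnd3, E2f2, Mcm7, Ect2 and Prc1) the first was used. A match is a description of the letters and not a site of binding.

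Among the 20 listed members of G2 and mitosis, counting Mki67 and Top2a, a CCAAT box stood in 18 (90.0%), CHR in 12 (60.0%) and both in 11 (55.0%). Over all 32851 listed promoters the shares were 33.8%, 25.2% and 8.78%. Of the 16 listed members of G1/S and DNA replication, 5 (31.2%) held an E2F match, against 1.86% of all promoters and 1 of the 20 mitotic members. The 3 listed members that act in G1 (Ccnd3, Cdk4 and Cdk6) held none of these motifs. The stretches below are the 140 bases before the annotated start, 5′ to 3′ on the strand of the gene, with motif letters in capitals. Cdk1, Ccnb1, Top2a and Kif11 show the mitotic arrangement of CCAAT boxes upstream of a CHR, Mcm6 shows E2F matches beside CCAAT boxes, Mcm3 shows CCAAT boxes alone, and Cdk6 shows a G1 gene with no match. They lie at chr10:69352913-69353052 (-) for Cdk1, chr13:100786487-100786626 (-) for Ccnb1, chr11:99024190-99024329 (-) for Top2a, chr19:37376242-37376381 (+) for Kif11, chr1:128359706-128359845 (-) for Mcm6, chr1:20820313-20820452 (-) for Mcm3 and chr5:3343753-3343892 (+) for Cdk6.
Cdk1: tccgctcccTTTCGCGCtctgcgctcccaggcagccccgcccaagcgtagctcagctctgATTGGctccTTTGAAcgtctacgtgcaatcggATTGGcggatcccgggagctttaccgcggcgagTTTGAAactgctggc
Ccnb1: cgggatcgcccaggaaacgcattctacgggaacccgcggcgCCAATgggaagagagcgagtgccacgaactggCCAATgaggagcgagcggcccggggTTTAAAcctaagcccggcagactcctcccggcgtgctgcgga
Top2a: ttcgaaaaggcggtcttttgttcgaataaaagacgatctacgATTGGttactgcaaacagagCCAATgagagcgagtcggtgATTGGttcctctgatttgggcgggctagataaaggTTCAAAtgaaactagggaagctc
Kif11: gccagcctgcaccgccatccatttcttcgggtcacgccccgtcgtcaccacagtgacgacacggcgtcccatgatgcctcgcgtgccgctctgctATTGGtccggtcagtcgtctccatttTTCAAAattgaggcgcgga
Mcm6: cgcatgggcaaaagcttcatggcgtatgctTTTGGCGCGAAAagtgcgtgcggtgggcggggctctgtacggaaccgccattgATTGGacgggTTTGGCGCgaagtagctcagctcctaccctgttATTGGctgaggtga
Mcm3: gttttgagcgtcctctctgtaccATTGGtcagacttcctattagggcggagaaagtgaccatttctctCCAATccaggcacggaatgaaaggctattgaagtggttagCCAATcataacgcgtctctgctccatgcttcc
Cdk6: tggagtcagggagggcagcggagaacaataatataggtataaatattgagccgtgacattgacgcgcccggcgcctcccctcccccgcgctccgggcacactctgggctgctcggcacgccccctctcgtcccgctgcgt
The Cdk1 stretch also holds an E2F match at its left end, the only one among the listed mitotic members.

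**Figure D1:**
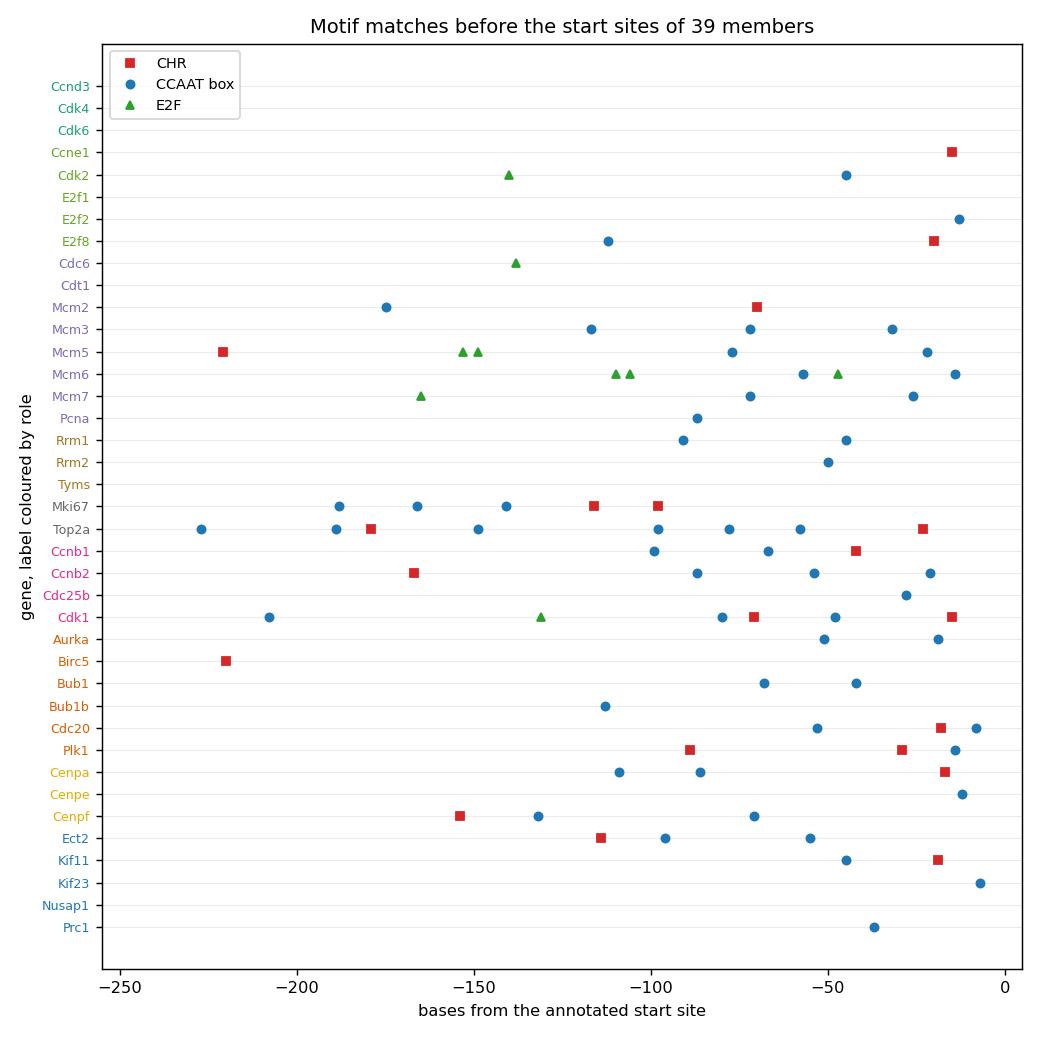
Matches to CHR (squares), the CCAAT box (circles) and E2F sites (triangles) in the 250 bases before the annotated start of the 39 listed members, 1 line per gene with the label coloured by role. CHR matches are seen in 12 of 20 mitotic members, E2F matches mainly in the replication members, and the 3 G1 members at the top have no match.

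Total counts ran from 51411240 to 80789299 per library, and no member fell below 163 counts in any library (Cdc25c), so all 50 passed the filter on low counts in every comparison without help from 1 high group. Several libraries call for care. The table's header gave another age for digenic replicate 1 of P12 (P3) and another genotype for Pkd1-RC/RC replicate 2 of P12 (Pkhd1). Groups were taken from the labels, and the authors' deposited group means match those groups. The sex in the header disagreed with Xist and Y-linked counts in 3 libraries, which were Pkhd1-/- replicate 1 of P0, Pkd1-RC/RC replicate 1 of P3 and Pkhd1-/- replicate 2 of P3. In 10 libraries the 8 measured adrenal markers summed to 26.7 to 564 CPM (counts scaled to the library total) against 2.36 to 9.82 in the other 26. They were 1 library each of WT, Pkd1-RC/RC and Pkhd1-/- at P0 and of all 4 genotypes at P3, Pkhd1-/- replicate 3 of P12, and digenic replicates 2 and 3 of P12. Kidney identity markers were present throughout, among them collecting duct Aqp2.

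Levels below are CPM scaled by TMM over all 36 libraries, as mean ± SD over n = 3 mice or as the 3 values in the order of replicates 1, 2 and 3. Per kilobase of gene model, the most abundant members in WT kidneys at P3 were Ccnd1, which encodes cyclin D1, at 138 CPM per kb and its partner kinase Cdk4 at 116. Next came Pcna, the sliding clamp of DNA polymerase, at 40.3 and the helicase subunit Mcm6 at 37.4. Cdk6 was lowest at 1.86. The median member lay at 14.4 CPM per kb at P3, 12.4 at P0 and 9.47 at P12, so that the G1 pair Ccnd1 and Cdk4 stood well above the genes of replication and mitosis at all 3 ages.

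Averaged over the 50 members, levels were highest at P3 in WT, Pkd1-RC/RC and Pkhd1-/- kidneys, about equal at P0 and P3 in digenic kidneys, and lowest at P12 in WT, Pkd1-RC/RC and digenic kidneys. The mean log2 CPM over the 50 genes, set to 0 for the WT mean at P0, was 0.34 ± 0.10 in WT at P3 and -0.27 ± 0.28 at P12. In the mutants at P3 it was 0.42 ± 0.07 in Pkd1-RC/RC, 0.33 ± 0.06 in Pkhd1-/- and 0.23 ± 0.16 in digenic kidneys. The genotypes spread apart more at P0, where Pkd1-RC/RC (0.27 ± 0.08) and digenic kidneys (0.22 ± 0.08) lay higher and Pkhd1-/- kidneys (-0.04 ± 0.16) lay with WT. All 3 Pkd1-RC/RC libraries of P0, from 0.181 to 0.321, stood above the highest WT library, at 0.165. Of the 3 digenic libraries, from 0.167 to 0.321, the lowest was about level with it. WT replicate 2 of P0 stood apart at -0.27, below 0.165 and 0.11 in the other WT libraries of that age.

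At P12 the spread between mice was widest in WT and Pkd1-RC/RC. Pkhd1-/- libraries lay within -0.09 to 0.00, while WT libraries lay at -0.11, -0.11 and -0.59 and Pkd1-RC/RC libraries at -0.12, -0.64 and -0.85. Digenic libraries lay at -0.49, -0.18 and -0.38. WT replicate 3 and Pkd1-RC/RC replicates 2 and 3 were low for the mitotic kinases and checkpoint genes above all, at -1.04, -1.24 and -1.54. They were much less so for the G1 genes, at -0.17, -0.05 and -0.09. Digenic replicates 1 and 3 shared this pattern, at -1.07 and -0.80 for the kinases and checkpoint genes. Their G1 genes lay at -0.03 and 0.06.

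**Figure D2:**
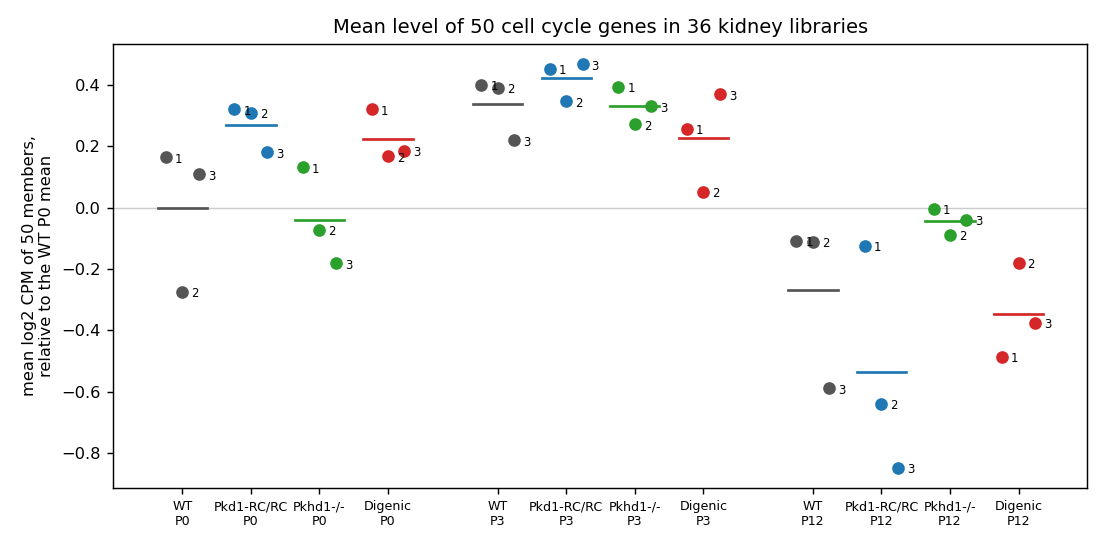
Mean log2 CPM of the 50 members in each of 36 libraries, relative to the mean of WT at P0. Points are mice numbered by replicate and bars are group means. Libraries of P3 lie between 0.05 and 0.47, and those of P12 spread from -0.85 to 0.00. WT replicate 3 and Pkd1-RC/RC replicates 2 and 3 are lowest at P12.

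The first question was how these genes changed as the kidney matured, and it was asked within each genotype from 1 fit of all 36 libraries. From P0 to P3 in WT kidneys, 20 of 50 members rose and 0 fell (edgeR quasi-likelihood test, Benjamini-Hochberg adjusted p under 0.05 over all 18049 genes). Over all genes 12.8% were called higher and 11.9% lower. The median log2 fold change of the members was 0.36, beside 0.01 for all genes. The 20 included 7 of 10 licensing and fork genes and 3 of 3 nucleotide synthesis genes. Counts and medians by role are descriptions, and no difference between roles was tested. Of the 7 genes of entry into mitosis (Cdk1, Ccna2, Ccnb1, Ccnb2, Cdc25b, Cdc25c and Foxm1), 0 were called in this step, with a median of 0.08 and 1 of them at an unadjusted p under 0.05, beside 37.2% of all genes. In whole kidneys a change in the number of dividing cells and a change in RNA per cell cannot be told apart.

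Ccnd1, which couples growth signals to the G1 kinases, read 249, 315 and 288 CPM in WT kidneys at P0 and 558, 514 and 517 CPM at P3. Every P3 library was above every P0 library, and the log2 fold change was 0.90 ± 0.11 (SE) with an adjusted p of 1.1e-05. Top2a, the topoisomerase that untangles sister chromosomes, read 128, 110.1 and 132 CPM at P0 and 248, 192 and 202 CPM at P3 (0.79 ± 0.18, adjusted p = 0.0027), again without overlap. Mki67, the coat protein of mitotic chromosomes used as a marker of cycling cells, read 99.0, 57.8 and 81.5 CPM and then 138, 135 and 152 CPM (0.83 ± 0.20, adjusted p = 0.0044). Cdc6, a loader of the helicase, rose from 10.1, 7.84 and 7.52 CPM to 20.6, 18.0 and 15.0 CPM (1.08 ± 0.27, adjusted p = 0.0048). It had the largest rise on the log2 scale among the called members.

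The other called members of WT kidneys rose by less or with larger adjusted p. In DNA synthesis they were, with log2 fold changes in parentheses, the thymidylate synthase gene Tyms (0.73), the ribonucleotide reductase genes Rrm2 (0.71) and Rrm1 (0.39), the helicase genes Mcm2 (0.52), Mcm5 (0.54), Mcm3 (0.47), Mcm6 (0.44) and Mcm4 (0.39), and Pcna (0.39). In G1 and the start of S phase they were the cyclin genes Ccnd2 (0.60), Ccne1 (0.63) and Ccne2 (0.64). In mitosis they were the checkpoint kinase genes Bub1b (0.65) and Bub1 (0.65), the kinetochore gene Cenpf (0.75) and the cytokinesis motor gene Kif20a (0.56). Their adjusted p-values ran from 0.0047 to 0.0499. Leaving out 1 library lowered the count from 20 to 11 without WT replicate 2 or 3 of P0 or without WT replicate 1 of P3, and without all libraries with adrenal transcripts it was 10. The median of the members was 0.22 without WT replicate 2 of P0. Ccnd1, Top2a, Mki67, Tyms, Cdc6, Bub1b, Rrm2 and Kif20a were called whichever library was left out.

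In the mutants fewer members were called in this step. In Pkhd1-/- kidneys 7 of 50 rose and 0 fell, beside 4.13% and 5.44% of all genes, with a median of 0.42. They were Ccnd1 (0.65, 6.9e-04), Mcm2 (0.62, 0.012), Cdk2 (0.42, 0.022), Mcm4 (0.44, 0.023), Mcm5 (0.53, 0.038), Cenpe (0.62, 0.045) and Kif20a (0.48, 0.0498), given with log2 fold change and adjusted p; Cdk2 is the kinase of the E-type cyclins and Cenpe a kinetochore motor. The count was 2 without Pkhd1-/- replicate 1 or 2 of P3, 4 without replicate 3 of P3, 3 without replicate 2 of P0, 8 without replicate 1 of P0 and 1 without the libraries with adrenal transcripts. In Pkd1-RC/RC kidneys 1 of 50 rose, beside 0.842% of all genes, with a median of 0.16. It was Ccnd1 (0.59 ± 0.11, adjusted p = 0.0042), from 416, 429 and 343 CPM to 594, 595 and 592 CPM, and it was not called without replicate 3 of P0. The next members by p were Pcna (0.25 ± 0.14) and Prc1 (0.39 ± 0.21), with Mki67 at 0.27 ± 0.20 and Top2a at 0.20 ± 0.18.

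In digenic kidneys 1 member rose and 1 fell, beside 5.93% and 3.82% of all genes, and the median was 0.01. Ccnd1 rose from 413, 450.5 and 346 CPM to 662, 530.4 and 569.9 CPM (0.54 ± 0.11, adjusted p = 0.0021). Cdc25b, the phosphatase that starts the activation of Cdk1, fell from 69.1, 59.6 and 84.2 CPM to 54.7, 47.7 and 52.5 CPM (-0.46 ± 0.14, adjusted p = 0.035). The Cdc25b call was lost without any 1 of digenic replicates 1 and 3 of P0 and replicates 1, 2 and 3 of P3, which brought the count to 1. The third member by p was Ccnd2 (0.43 ± 0.21), and Mki67 stood at 0.26 ± 0.20 and Top2a at 0.18 ± 0.18. Ccnd1 was the only member called in all 4 genotypes, and 27 members were called in none.

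A smaller count in a mutant does not show a different change, and that difference was tested directly. The change of a mutant's effect against WT from P0 to P3 was called for 0 of 50 members in any of the 3 mutants by edgeR and by DESeq2. For the digenic mutant the median was -0.31, 48 of 50 members were negative and 12 had an unadjusted p under 0.05, beside 10.1% of all genes at that level and 0.693% called. In each comparison of this study between 46.8% and 54.0% of all genes had a positive value. Members can shift together within 1 library, as in WT replicate 2 of P0, so their signs are not independent observations. The digenic median was -0.18 without WT replicate 2 of P0 and -0.49 without the libraries with adrenal transcripts. The smallest p belonged to Cdc6 (-1.0 ± 0.37, adjusted p = 0.31), Kif20a (-0.59 ± 0.22) and Ccne1 (-0.83 ± 0.32), with Top2a at -0.61 ± 0.26, Mki67 at -0.57 ± 0.29 and Ccnd1 at -0.36 ± 0.16. Without digenic replicate 3 of P0 the count was 1. For Pkd1-RC/RC the median was -0.15, with 4 members at an unadjusted p under 0.05 (all genes 9.81%), led by Mcm6 (-0.55 ± 0.19), Cdc6 (-0.88 ± 0.37) and Top2a (-0.59 ± 0.26), with Mki67 at -0.56 ± 0.29 and Ccnd1 at -0.31 ± 0.16. For Pkhd1-/- it was 0.01, with 0 members at that level (all genes 6.33%), and Ccnd1 (-0.25 ± 0.16), Mcm6 (-0.25 ± 0.19) and Ect2 (0.39 ± 0.30) had the smallest p. In these Pkhd1-/- tests Top2a stood at -0.27 ± 0.26 and Mki67 at -0.27 ± 0.29. Both single mutants had 0.0% of all genes called. The 3 tests share the WT libraries, among them the low replicate 2 of P0, without which the Pkd1-RC/RC median was -0.03. That median was -0.26 without WT replicate 1 of P0, -0.25 without replicate 3 of P0, -0.225 without WT replicate 3 of P3 and -0.22 without the libraries with adrenal transcripts.

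**Figure D3:**
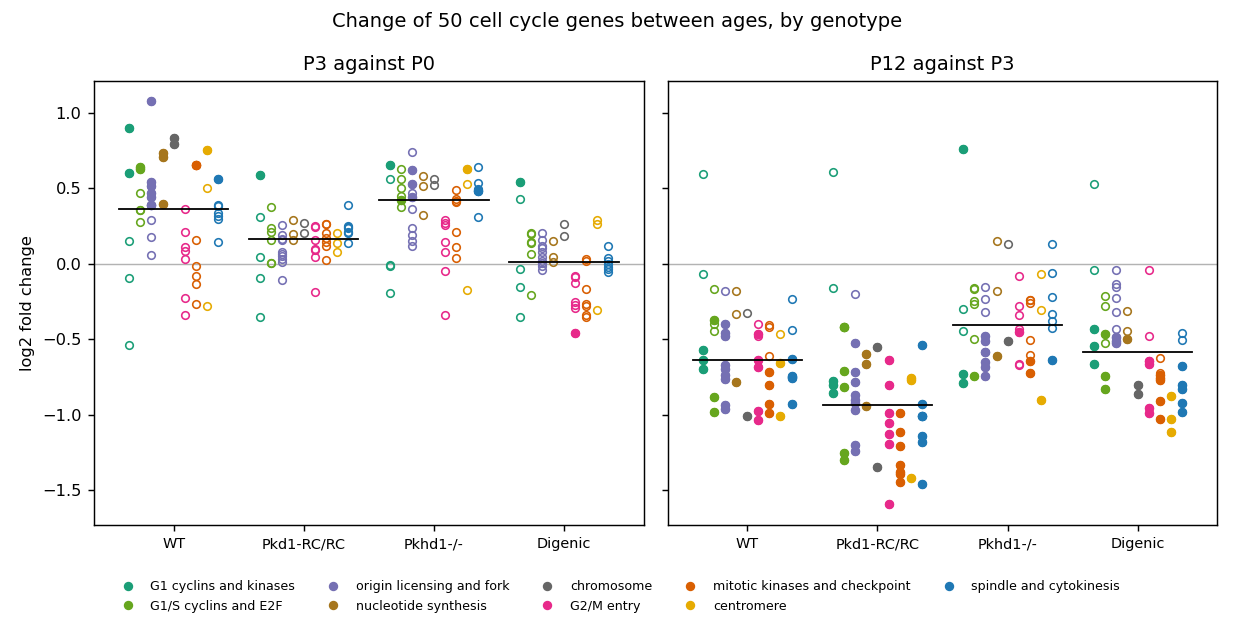
Log2 fold change of the 50 members from P0 to P3 (left) and from P3 to P12 (right) in each genotype, coloured by role. Filled points passed the test, open points did not, and black lines are medians. On the left the medians run from 0.01 (digenic) to 0.42 (Pkhd1-/-), on the right they are below -0.4 in all 4 genotypes, and Cdk6 lies above 0.5 in all 4 columns on the right.

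From P3 to P12 members fell in every genotype, between 16 and 47 of the 50. In WT kidneys 33 of 50 fell and 0 rose, beside 17.0% and 18.6% of all genes, with a median log2 fold change of -0.64 against 0.03 for all genes. The fall reached every role, with 9 of 10 licensing and fork genes, 5 of 7 genes of entry into mitosis and 5 of 7 spindle and cytokinesis genes called. Top2a fell from 248, 192 and 202 CPM to 125, 117 and 77.2 CPM (-1.01 ± 0.18, adjusted p = 9.1e-05), and Mcm3, a subunit of the replicative helicase, from 123, 136 and 105 CPM to 67.3, 71.0 and 48.8 CPM (-0.96 ± 0.16, adjusted p = 3.3e-05). Neither gene's groups overlapped. Mki67 lay at 122, 128 and 88.5 CPM at P12, each below the lowest P3 value, and did not pass (-0.33 ± 0.20, adjusted p = 0.22).

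By role, the called WT members with the smallest adjusted p were Ccnd1 (-0.64) and Cdk4 (-0.70) in G1, Ccne1 (-0.98) and Cdk2 (-0.37) at the start of S phase, Mcm4 (-0.73) and Mcm3 (-0.96) in licensing, Rrm1 (-0.79) in nucleotide synthesis, and Top2a (-1.01) on the chromosome. In mitosis they were Ccnb1 (-1.04) and Cdc25c (-0.98), which encode cyclin B1 and a phosphatase that activates its kinase, the checkpoint kinase genes Bub1b (-0.93) and Bub1 (-0.99), Cenpa (-1.01) and Cenpe (-0.66) of the centromere, and Tpx2 (-0.93) and Kif20a (-0.63) of the spindle. Their adjusted p-values ran from 3.2e-05 to 0.013. The count was 18 without WT replicate 3 of P12, the library with the lowest member mean of its group.

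In Pkd1-RC/RC kidneys 47 of 50 members fell and 0 rose, beside 16.9% and 17.7% of all genes, with a median of -0.94. Only Ccnd3, Cdk6 and Gins2 were not called. Bub1b fell from 67.9, 61.1 and 73.3 CPM to 35.3, 22.6 and 19.1 CPM (-1.39 ± 0.18, adjusted p = 7.1e-07), and the groups did not overlap. The largest fall by log2 fold change was that of Ccnb1 (-1.60). By role the smallest adjusted p belonged to Ccnd1 (-0.86) and Cdk4 (-0.78), Ccne1 (-1.30) and E2f8 (-1.26), a repressor among the E2F factors, Mcm3 (-1.20) and Mcm4 (-0.87), Rrm1 (-0.94) and Rrm2 (-0.66), and Top2a (-1.35) and Mki67 (-0.55). Among mitotic roles it belonged to Ccnb1 and Ccna2 (-1.06), Bub1b and Bub1 (-1.38), Cenpa (-1.42) and Cenpe (-0.77), and Tpx2 (-1.46) and Kif20a (-1.01). Leaving out Pkd1-RC/RC replicate 2 of P12 gave 43, and the count was 46 without replicate 1 of P3 and 45 without the libraries with adrenal transcripts.

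In Pkhd1-/- kidneys 16 members fell and 1 rose, beside 17.9% and 18.7% of all genes, and the median was -0.41. The falls were those of Ccnd1 (-0.73), Cdk4 (-0.79), Mcm4 (-0.65), Mcm3 (-0.75), Mcm2 (-0.68), Rrm1 (-0.62), Bub1b (-0.73) and Mcm7 (-0.59), at adjusted p-values from 9.2e-06 to 0.0018, and of Cenpa (-0.90), Ccne1 (-0.75), Cdc25b (-0.45), Mcm5 (-0.51), Tpx2 (-0.64), Cdt1 (-0.48), Top2a (-0.51) and Aurkb (-0.64), up to 0.041. Cdk6, a partner of the D-type cyclins, rose from 7.14, 10.8 and 5.67 CPM to 15.3, 13.4 and 11.1 CPM (0.76 ± 0.26, adjusted p = 0.023). In the other genotypes Cdk6 had log2 fold changes of 0.59 ± 0.26, 0.60 ± 0.26 and 0.53 ± 0.26 in WT, Pkd1-RC/RC and digenic kidneys, none of them called. Mki67 (0.13 ± 0.20) and Rrm2 (0.15 ± 0.19) had positive values and did not pass. The count of 17 was 11 without replicate 1 of P3 or replicate 2 of P12 and 22 without replicate 2 of P3, and it was 37 when only these 6 libraries were fitted.

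In digenic kidneys 29 members fell and 0 rose, beside 10.8% and 11.5% of all genes, with a median of -0.59. Called were 5 of 7 kinase and checkpoint genes, 5 of 7 spindle genes, 3 of 3 centromere genes and 3 of 10 licensing and fork genes, and 13 of the 29 were called whichever library was left out. Mki67 fell from 149, 111 and 153 CPM to 67.5, 94.6 and 74.2 CPM (-0.81 ± 0.20, adjusted p = 0.0049), and the groups did not overlap. By role the smallest adjusted p belonged to Ccnd1 (-0.55) and Cdk4 (-0.44), Cdk2 (-0.47) and Ccne1 (-0.74), Mcm7 (-0.51) and Mcm2 (-0.52), Rrm1 (-0.50), Top2a (-0.87) and Mki67. Among mitotic roles it belonged to Ccnb1 (-0.96) and Cdc25c (-0.99), Bub1b (-0.91) and Bub1 (-1.03), Cenpe (-1.03) and Cenpa (-1.12), and Kif11 (-0.99) and Tpx2 (-0.92). Cdt1 (-0.15 ± 0.16) and Cdc25b (-0.04 ± 0.14), both called in the 3 other genotypes, were not. The count was 15 without digenic replicate 1 or 3 of P12 or replicate 3 of P3. Without the libraries with adrenal transcripts the median was -0.59, as in the fit with all libraries. Leaving them out keeps 1 digenic library of P12, replicate 1, whose header says P3. Ureteric tip markers of that library summed to 129 CPM and nephron progenitor markers to 178 CPM. Both lay below the digenic libraries of P3, at 280 to 336 CPM and 423 to 491 CPM. The 9 measured macrophage markers rose in this step in digenic kidneys, 9 of 9, from a sum of 251 to 398 CPM to one of 399 to 1031 CPM, and their part in the members' values was not tested.

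Across the 4 genotypes 12 members fell in all (Ccnd1, Cdk4, Ccne1, Mcm2, Mcm3, Mcm7, Rrm1, Top2a, Aurkb, Bub1b, Cenpa and Tpx2), and only Ccnd3 and Gins2 were called in none. The difference from the WT fall was tested too, and the change of effect from P3 to P12 was called for 0 of 50 members in each mutant by edgeR and by DESeq2. Its median was -0.31 for Pkd1-RC/RC, 0.21 for Pkhd1-/- and 0.00 for the digenic mutant, with 1, 0 and 3 members at an unadjusted p under 0.05. Over all genes 3.1%, 0.809% and 15.2% were at that level and 0.0111%, 0.0% and 2.33% were called. The Pkd1-RC/RC median was -0.605 without its replicate 1 of P12 and -0.17 without its replicate 3 of P12, and the Pkhd1-/- median was 0.07 without WT replicate 3 of P12. For Pkd1-RC/RC the smallest p belonged to Aurka (-0.80 ± 0.38), Cdc20 (-0.69 ± 0.35) and Bub1b (-0.46 ± 0.25). For Pkhd1-/- it belonged to Top2a (0.50 ± 0.26), Kif11 (0.54 ± 0.32) and Mki67 (0.46 ± 0.29). For the digenic mutant it belonged to Mcm4 (0.42 ± 0.17), Cdc25b (0.43 ± 0.20) and Mcm3 (0.48 ± 0.23). Mki67, Top2a and Ccnd1 stood at -0.23 ± 0.29, -0.34 ± 0.26 and -0.22 ± 0.16 for Pkd1-RC/RC, Ccnd1 at -0.09 ± 0.16 for Pkhd1-/-, and the 3 genes at -0.48 ± 0.29, 0.14 ± 0.26 and 0.09 ± 0.16 for the digenic mutant.

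Cell type markers moved with these steps. In WT kidneys the 10 nephron progenitor markers summed to 464 to 659 CPM at P0, 508 to 517 at P3 and 348 to 388 at P12, and 6 of 10 fell and 1 rose from P3 to P12, led by Uncx (-4.66) and Six2 (-5.96). From P0 to P3, while the members rose, 3 of 10 fell and 2 rose, with Cited1 at -2.56 and Six2 at -1.98. The 8 ureteric tip markers summed to 336 to 349 CPM at P3 and 101 to 119 at P12 in WT, with 6 of 8 called lower, and the 10 proximal tubule markers rose from 3429 to 4519 CPM to 7183 to 8813 CPM, with 9 of 10 called higher. No listed marker of these 3 lists was at 0. The part of these cell types in the members' changes was not tested.

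The second question was what each mutation did at a given age. At P0 the members leaned higher in Pkd1-RC/RC and digenic kidneys, and no member passed in edgeR. In Pkd1-RC/RC against WT 0 of 50 were called (edgeR), beside 0.0166% of all genes higher and 0.0% lower, while DESeq2 called 1. The median was 0.23 against 0.00 for all genes, 41 of 50 values were positive, and 16 had an unadjusted p under 0.05, beside 10.4% of all genes. For 13 members all 3 mutant libraries lay above all 3 WT libraries, beside 8.65% of all genes. Top2a read 194, 177 and 191 CPM against 128, 110.1 and 132 CPM in WT, without overlap (0.60 ± 0.12, adjusted p = 0.19). After it came Rrm2 (0.66 ± 0.19, adjusted p = 0.42) and Mcm6 (0.59 ± 0.18, adjusted p = 0.42), with Ccnd1 at 0.48 ± 0.15 and Mki67 at 0.41 ± 0.17. The median was 0.50 for Mki67 with Top2a and the values were also high for licensing and fork genes, with a median of 0.44 and 10 of 10 positive, while the genes of entry into mitosis had a median of -0.03. Without WT replicate 2, the low library, the median of all members was 0.10, and without WT replicate 1 it was 0.38. WT replicate 2 was also the lowest of its group for nephron progenitor markers (464 CPM, against 659 and 625) and for ureteric tip markers (268 CPM, against 418 and 411), and the part of these cells in the result was not tested.

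In digenic kidneys of P0 0 of 50 members were called (edgeR; 1 by DESeq2), beside 0.466% of all genes higher and 0.205% lower, with a median of 0.21, 43 positive values and 10 at an unadjusted p under 0.05, beside 16.4% of all genes at that level. The macrophage markers summed to 232 to 268 CPM in these digenic libraries and 178 to 207 CPM in WT, with 1 of 9 called higher. The 8 measured erythroid markers summed to 431 to 1039 CPM in digenic and 976 to 1345 CPM in WT libraries. The part of either list was not tested. Ccnd1 read 413, 450.5 and 346 CPM against 249, 315 and 288 CPM, without overlap (0.51 ± 0.15, adjusted p = 0.14), followed by Top2a (0.41 ± 0.12) and Mki67 (0.54 ± 0.17). In all, 7 members lay above WT without overlap, beside 11.0% of all genes. In Pkhd1-/- kidneys 0 of 50 were called by edgeR and by DESeq2, 0 had an unadjusted p under 0.05, and the median was 0.00, beside 0.0111% of all genes called and 4.71% at an unadjusted p under 0.05. Ccnd1 (0.28 ± 0.15), Prc1 (-0.38 ± 0.21) and Kif23 (-0.32 ± 0.19) had the smallest p, with Top2a at 0.09 ± 0.12 and Mki67 at -0.04 ± 0.17. The comparisons share the WT libraries, and without WT replicate 2, which was low for the members, the digenic median was 0.09. In the authors' deposited table the members called higher at P0 numbered 2 in Pkd1-RC/RC, 1 in digenic and 0 in Pkhd1-/- kidneys.

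Digenic kidneys of P0 were also set against each single mutant. Against Pkd1-RC/RC 0 of 50 members were called (edgeR and DESeq2), 0 had an unadjusted p under 0.05 and the median was -0.03, beside 0.0388% of all genes called and 5.04% at an unadjusted p under 0.05. The smallest p belonged to Rrm1 (-0.21 ± 0.13), Top2a (-0.19 ± 0.12) and Mcm7 (-0.21 ± 0.17), with Mki67 at 0.13 ± 0.17 and Ccnd1 at 0.04 ± 0.15. Against Pkhd1-/- 0 were called by both tools, 9 had an unadjusted p under 0.05, 46 of 50 values were positive and the median was 0.26, beside 0.244% of all genes called and 14.9% at an unadjusted p under 0.05. That median was 0.41 without Pkhd1-/- replicate 1 and also without the libraries with adrenal transcripts. Mki67 (0.58 ± 0.17, adjusted p = 0.17), Cenpe (0.62 ± 0.19) and Cenpf (0.50 ± 0.17) led, with Top2a at 0.32 ± 0.12 and Ccnd1 at 0.23 ± 0.15. The interaction, which is the digenic effect minus the sum of both single effects on the log2 scale, was called for 0 members by edgeR and by DESeq2, with a median of -0.02 and 0 at an unadjusted p under 0.05, beside 0.00554% of all genes called and 5.92% at that level. There Cdk4 (-0.35 ± 0.19), Plk1 (0.63 ± 0.38) and Top2a (-0.28 ± 0.17) had the smallest p, with Ccnd1 at -0.24 ± 0.21 and Mki67 at 0.17 ± 0.24.

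At P3 no member was called in any comparison of genotypes by edgeR or DESeq2. Against WT the medians were 0.08 in Pkd1-RC/RC, 0.00 in Pkhd1-/- and -0.17 in digenic kidneys, with 1, 0 and 3 members at an unadjusted p under 0.05. Over all genes 4.46%, 2.19% and 15.8% were at that level and 0.0443%, 0.0166% and 2.7% were called. The digenic median was -0.07 without digenic replicate 2 and -0.09 without WT replicate 2, and the Pkd1-RC/RC median was 0.05 without its replicate 1 and 0.02 without WT replicate 3. In digenic kidneys 40 of 50 values were negative, with the smallest p for Ccne1 (-0.39 ± 0.13, adjusted p = 0.16), Tyms (-0.34 ± 0.14) and Cdc6 (-0.34 ± 0.15), while Ccnd1 stood at 0.14 ± 0.10, Mki67 at -0.05 ± 0.17 and Top2a at -0.21 ± 0.12. In Pkd1-RC/RC kidneys Aurka (0.37 ± 0.16), Cdt1 (0.20 ± 0.12) and Foxm1 (0.18 ± 0.11) led, with Ccnd1 at 0.16 ± 0.10, Mki67 at -0.16 ± 0.17 and Top2a at 0.00 ± 0.12. In Pkhd1-/- kidneys Mki67 (-0.30 ± 0.17), Top2a (-0.17 ± 0.12) and Cenpf (-0.23 ± 0.17) led, with Ccnd1 at 0.04 ± 0.10. The macrophage markers summed to 251 to 398 CPM in digenic and 164 to 214 CPM in WT kidneys of P3. The erythroid markers summed to 191 to 710 CPM in digenic kidneys, with replicate 2 the lowest. They summed to 436 to 1271 CPM in WT and 675 to 1053 CPM in Pkd1-RC/RC kidneys. The part of either list in these values was not tested.

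Digenic kidneys of P3 lay lower than Pkd1-RC/RC kidneys in 45 of 50 members, with a median of -0.24, 18 at an unadjusted p under 0.05 and 0 called, beside 10.4% of all genes at that level and 0.46% called. Without digenic replicate 2 the median was -0.14. For 15 members the digenic libraries lay below all Pkd1-RC/RC libraries, beside 9.55% of all genes. Rrm2 read 82.4, 73.6 and 90.9 CPM in digenic and 106, 93.1 and 109 CPM in Pkd1-RC/RC kidneys (-0.32 ± 0.10, adjusted p = 0.22). E2f2 (-0.37 ± 0.12) and Rrm1 (-0.34 ± 0.13) followed, while Top2a stood at -0.22 ± 0.12, Mki67 at 0.11 ± 0.17 and Ccnd1 at -0.02 ± 0.10. Against Pkhd1-/- kidneys the median was -0.15, with 4 members at an unadjusted p under 0.05, beside 19.0% of all genes at that level and 3.49% called, led by Tyms (-0.42 ± 0.14), Ccne1 (-0.36 ± 0.13) and Cenpa (-0.38 ± 0.16). Mki67, Ccnd1 and Top2a stood at 0.25 ± 0.17, 0.10 ± 0.10 and -0.04 ± 0.12 there. By Xist and Y-linked counts the 3 digenic libraries of P3 were female and the 3 Pkhd1-/- libraries male, so sex and genotype cannot be told apart from these 6 libraries alone. With sex as a term over all 12 libraries of P3 the median against Pkhd1-/- was -0.06, and without digenic replicate 2 it was -0.08. The WT and Pkd1-RC/RC groups of P3 held both sexes. With the sex term the digenic median was -0.12 against WT and -0.19 against Pkd1-RC/RC, and that of the interaction was -0.16. The interaction had a median of -0.23, and -0.14 without digenic replicate 2, with 4 members at an unadjusted p under 0.05 and 0 called, beside 8.08% and 0.0% of all genes. E2f2 (-0.45 ± 0.18), Aurka (-0.57 ± 0.23) and Rrm2 (-0.35 ± 0.14) led it, with Mki67 at 0.41 ± 0.23, Ccnd1 at -0.06 ± 0.14 and Top2a at -0.04 ± 0.17.

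At P12 digenic kidneys differed from WT in 3 members, all higher: Cdt1, Cdc25b and Cdk6. Over all genes 12.0% were called higher and 11.0% lower, so the share of members called, 3 of 50, was below that of all genes. The median of the members was -0.14 and 37 of 50 values were negative. That median was -0.05 without digenic replicate 1, -0.04 or -0.05 without WT replicate 1 or 2, and -0.28 or -0.22 without WT replicate 3 or digenic replicate 2. Without the libraries with adrenal transcripts it was -0.27. By role, licensing and fork genes had a median of 0.14 with 8 of 10 positive and 1 called (Cdt1), while mitotic kinases and checkpoint genes had -0.32, centromere genes -0.35 and spindle genes -0.17, with 0 of 17 positive and 0 called.

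Cdt1, which loads the helicase onto origins, read 32.8, 32.8 and 37.7 CPM in digenic kidneys of P12 and 27.2, 25.9 and 24.3 CPM in WT. The lowest digenic library lay above the highest WT library, and the log2 fold change was 0.41 ± 0.09 (SE) with an adjusted p of 0.0069. Cdc25b read 44.4, 55.0 and 51.1 CPM against 38.8, 39.0 and 31.9 CPM (0.45 ± 0.14, adjusted p = 0.032), also without overlap. Cdk6 read 14.1, 15.3 and 15.2 CPM against 13.3, 8.55 and 9.62 CPM (0.50 ± 0.15, adjusted p = 0.033), with WT replicate 1 close to the digenic values and below them. Next by p were Mcm6 (0.28 ± 0.10, adjusted p = 0.06), Ccnd1 (0.24 ± 0.09, adjusted p = 0.062) and Mcm4 (0.25 ± 0.10, adjusted p = 0.074), all positive. Mki67 read 67.5, 94.6 and 74.2 CPM against 122, 128 and 88.5 CPM, overlapping WT, and did not pass (-0.52 ± 0.23, adjusted p = 0.13). Top2a stood at -0.07 ± 0.26.

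Cdt1 was called against WT whichever library was left out, and its call was lost in the fit of all 36 libraries. The calls of Cdc25b and Cdk6 were lost without digenic replicate 2, digenic replicate 3 or WT replicate 3, and that of Cdk6 also without WT replicate 2 and when all 36 libraries were fitted together. The count of 3 was 1 without digenic replicate 2, digenic replicate 3 or WT replicate 3, and it stayed 3 without digenic replicate 1, whose header names another age. It was 0 without the libraries with adrenal transcripts, which leaves digenic replicate 1 alone, assumed to vary like the other groups. The log2 fold change of Cdt1 was 0.36 there, Cdk6 at 0.44 and Cdc25b at 0.295. Digenic replicates 2 and 3, and neither WT nor Pkd1-RC/RC libraries, held adrenal transcripts at P12, and their part in the result was not tested beyond these values. In the authors' deposited table the members called in this comparison numbered 2 higher and 1 lower. By the authors' edgeR, Cdc25b (0.45, adjusted p = 0.021) and Cdt1 (0.41, adjusted p = 0.028) were higher. Mki67, which did not pass here, was lower there (-0.53, adjusted p = 0.037). Cdk6, called here, was not called there (0.50, adjusted p = 0.10).

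Pkd1-RC/RC and Pkhd1-/- kidneys of P12 differed from WT in 0 of 50 members by edgeR and by DESeq2, and their members leaned in opposite directions. In Pkd1-RC/RC 48 of 50 values were negative, with a median of -0.28, 1 at an unadjusted p under 0.05, beside 7.46% of all genes at that level and 0.267% called. E2f1 (-0.24 ± 0.10, adjusted p = 0.65), Pcna (-0.27 ± 0.13) and Cdk6 (0.29 ± 0.15) had the smallest p, with Mki67 at -0.38 ± 0.23, Top2a at -0.33 ± 0.26 and Ccnd1 at -0.05 ± 0.09. In Pkhd1-/- 46 of 50 were positive, with a median of 0.23, 1 at that level, beside 4.41% of all genes, and 0.0333% of all genes called, and 14 members lay above WT without overlap, beside 6.37% of all genes. Cdk6 (0.34 ± 0.15, adjusted p = 0.96), Ect2 (0.38 ± 0.19) and Ccne2 (0.37 ± 0.18) led there, with Top2a at 0.32 ± 0.26, Mki67 at 0.15 ± 0.23 and Ccnd1 at -0.06 ± 0.09. WT replicate 3, low for the members, entered both comparisons: without it the median was -0.43 for Pkd1-RC/RC and 0.07 for Pkhd1-/-. The Pkd1-RC/RC median was -0.61 without its replicate 1, -0.09 without its replicate 3, -0.18 without WT replicate 1 and -0.17 without WT replicate 2. Without Pkd1-RC/RC replicate 2, whose header names another genotype, the count stayed 0.

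**Figure D4:**
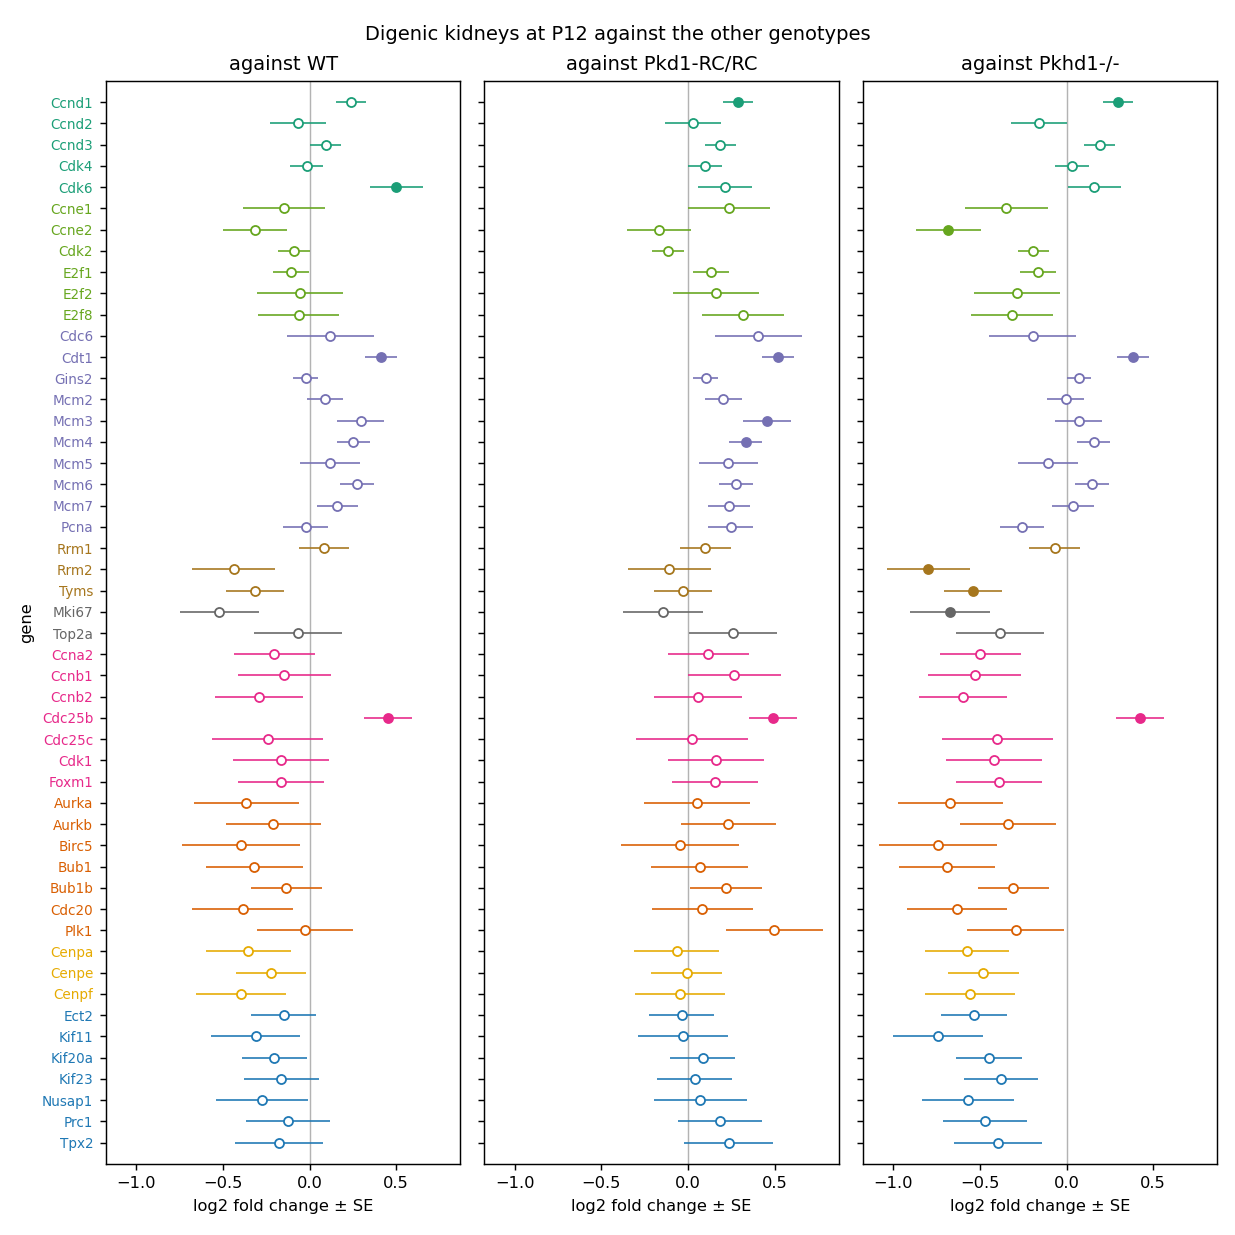
Log2 fold change with its standard error for each of the 50 members in digenic kidneys of P12 against WT (left), Pkd1-RC/RC (middle) and Pkhd1-/- (right). Filled points passed the test; labels are coloured by role. Cdt1 and Cdc25b are filled in all 3 panels, and in the right panel most mitotic members lie left of 0.

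Set against Pkd1-RC/RC kidneys of P12, digenic kidneys were higher in 5 of 50 members and lower in 0, beside 10.3% and 9.24% of all genes, with a median of 0.14. Of the 5, 3 belong to origin licensing: Cdt1 (0.52, 0.0028), Mcm4 (0.33, 0.028) and Mcm3 (0.46, 0.034), with log2 fold change and adjusted p. The others were Cdc25b (0.49, 0.026) and Ccnd1 (0.29, 0.033). Mcm4 read 64.0, 58.9 and 65.2 CPM in digenic and 50.8, 51.5 and 46.3 CPM in Pkd1-RC/RC kidneys, and Ccnd1 read 428, 400.3 and 379 CPM and 294, 353 and 336 CPM. Neither gene's libraries overlapped. The count was 2 without digenic replicate 1 or 3, 3 without digenic replicate 2 or Pkd1-RC/RC replicate 2, 1 without Pkd1-RC/RC replicate 3 and 9 without Pkd1-RC/RC replicate 1. It was 1 without the libraries with adrenal transcripts and 1 with sex as a term. Cdt1 was called under each of these settings, while of 14 alternatives 8 ended the call of Mcm3, 7 that of Mcm4, 7 that of Ccnd1 and 6 that of Cdc25b. The median was 0.41 without Pkd1-RC/RC replicate 1, 0.01 without its replicate 3, 0.08 without its replicate 2, 0.06 without digenic replicate 2 and 0.01 without the libraries with adrenal transcripts.

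Against Pkhd1-/- kidneys of P12, digenic kidneys were higher in 3 members and lower in 4, beside 15.5% and 12.6% of all genes, with a median of -0.36. The higher members were Cdt1 (0.39, 0.008), Ccnd1 (0.30, 0.022) and Cdc25b (0.43, 0.036). The lower members were Ccne2 (-0.68, 0.016), Tyms (-0.54, 0.03), Rrm2 (-0.80, 0.03) and Mki67 (-0.68, 0.049), of which Ccne2 encodes a cyclin of the G1/S transition and Tyms and Rrm2 make deoxynucleotides. Rrm2 read 57.8, 63.9 and 59.3 CPM in digenic and 108, 98.5 and 109 CPM in Pkhd1-/- kidneys, and Mki67 read 67.5, 94.6 and 74.2 CPM and 121, 122 and 134 CPM. Both genes were lower in all 3 digenic libraries. In all, 31 members lay below Pkhd1-/- without overlap, beside 23.0% of all genes, and the mitotic kinases and checkpoint genes had a median log2 fold change of -0.63. The count was 2 without digenic replicate 3 or Pkhd1-/- replicate 1 or 3, 3 without Pkhd1-/- replicate 2 and 4 without digenic replicate 1. It was 4 with sex as a term and 0 without the libraries with adrenal transcripts, of which 1 is Pkhd1-/- replicate 3. The median was -0.54 there. Of 14 alternatives 10 ended the call of Mki67, among them RLE size factors, no filter on low counts and removal of the gene length trend, and 8 ended that of Rrm2, among them leaving out any 1 of the 6 libraries. The calls of Tyms, Ccnd1, Cdc25b, Ccne2 and Cdt1 ended in 7, 5, 5, 3 and 2 of them, and Cdt1 was called whichever library was left out.

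The interaction at P12 was called for 1 of 50 members, beside 5.38% of all genes called higher and 3.19% lower, with a median of -0.07. It was Cdt1, at 0.49 ± 0.13, adjusted p = 0.037. Pkd1-RC/RC kidneys read 26.6, 22.8 and 22.2 CPM and Pkhd1-/- kidneys 27.4, 25.1 and 26.5 CPM for Cdt1, both overlapping WT, while every digenic library lay above every other library of that age. Ccnd1 (0.35 ± 0.12, adjusted p = 0.092), Cdc25b (0.46 ± 0.19, adjusted p = 0.15) and Ccnd3 (0.28 ± 0.13) followed and did not pass, with Mki67 at -0.30 ± 0.32 and Top2a at -0.06 ± 0.36. The Cdt1 call was lost without digenic replicate 3, Pkd1-RC/RC replicate 2 or 3, any of the 3 Pkhd1-/- libraries, or WT replicate 1 or 2, and without the libraries with adrenal transcripts, where it stood at 0.43. The median of the members ran from -0.25 to 0.18 when 1 library was left out and gives no direction. Without digenic replicate 1 the count stayed 1, and without Pkd1-RC/RC replicate 1 it was 2.

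**Figure D5:**
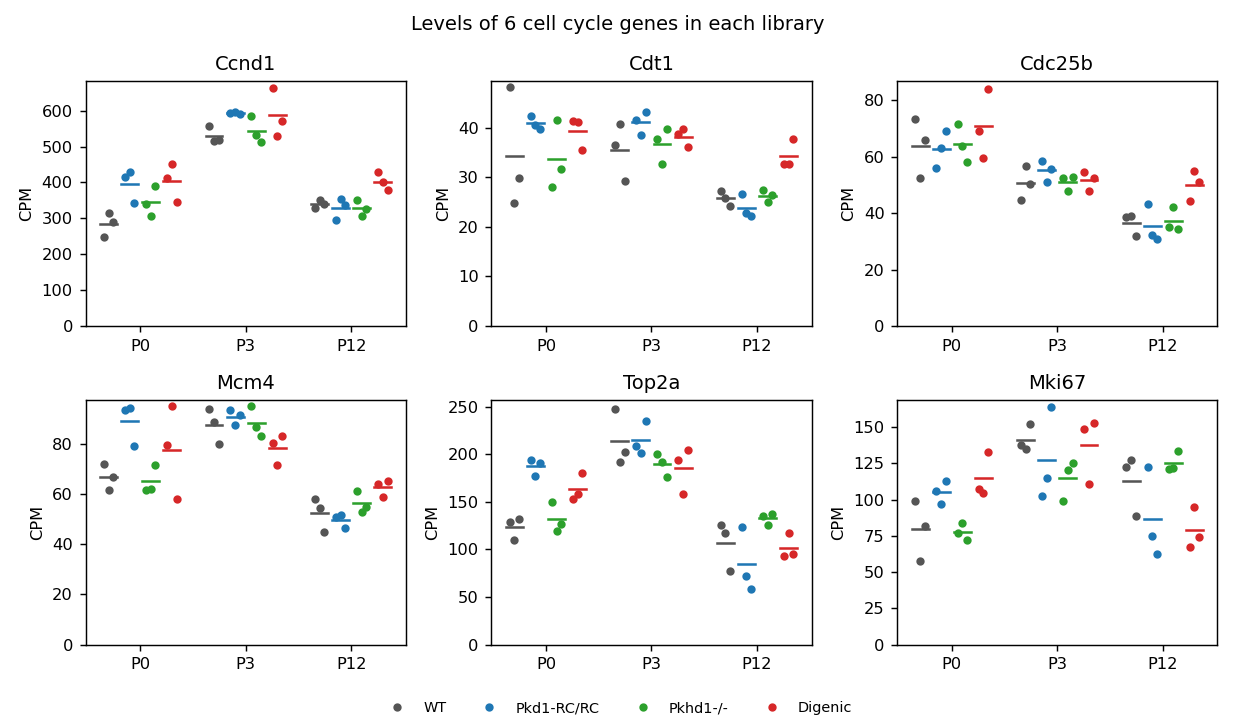
CPM of 6 members in each of 36 libraries by age and genotype, with points for mice and bars for group means. Ccnd1 is highest at P3 in all genotypes, and at P12 the digenic libraries of Cdt1, Cdc25b and Mcm4 lie above those of WT.

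Markers of other cells differed in digenic kidneys of P12. The 9 measured macrophage markers summed to 399 to 1031 CPM against 173 to 213 in WT, and 9 of 9 were called higher, as they were against Pkd1-RC/RC and against Pkhd1-/-, led by Cd68 (1.84) and Cd163 (3.08). The erythroid markers summed to 676 to 1506 CPM against 774 to 1297. Digenic replicate 2 was the highest of its group for the members and for erythroid, nephron progenitor, ureteric tip and stroma markers. It was the lowest for macrophage, lymphocyte and proximal tubule markers. The nephron progenitor markers summed to 178 to 300.0 CPM against 348 to 388, with 3 of 10 lower and 2 higher, led by Itga8 (-1.21). Ureteric tip markers summed to 129 to 218 CPM against 101 to 119, with 5 of 8 higher, led by Gfra1 (1.04), and proximal tubule markers to 5303 to 6030 CPM against 7183 to 8813, with 5 of 10 lower, led by Miox (-1.65). Of 6 measured lymphocyte markers 3 were higher and 1 lower, led by Cd4 (2.35) and Cd79b (0.92), with sums of 12.7 to 29.9 CPM against 7.89 to 12.4. Of 10 stroma and myofibroblast markers 2 were higher and 2 lower, led by the smooth muscle genes Tagln (0.98) and Acta2 (0.90), both called in the interaction too, with sums of 3895 to 7196 CPM against 5159 to 5538. The part of these cell types in the values of Cdt1, Cdc25b, Cdk6 and the other members was not tested.

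Other genes of the same pathways, from lists that exclude the members, were counted by the same tests. Of 25 further replication genes 11 rose and 0 fell in WT kidneys from P0 to P3, led by Pola1 (1.67) and Dnmt1 (0.86), and 21 fell from P3 to P12, led by Rfc3 (-0.81). Pola1, the catalytic subunit of DNA polymerase alpha, read 12.2, 11.8 and 9.15 CPM at P0 and 40.3, 28.9 and 36.6 CPM at P3, without overlap. Of 29 further mitosis genes 8 rose and 0 fell from P0 to P3, led by the condensin genes Smc2 (0.86) and Smc4 (0.85), and 21 fell and 1 rose from P3 to P12, led by Ncapd2 (-1.0). In Pkd1-RC/RC, Pkhd1-/- and digenic kidneys from P3 to P12, 20, 16 and 14 of the 25 replication genes and 26, 8 and 21 of the 29 mitosis genes fell. From P0 to P3 the rises among the 25 and the 29 numbered 8 and 7 in Pkhd1-/- kidneys, led by Dnmt1 (0.58) and Smc4 (0.71), and 0 and 0 in Pkd1-RC/RC and in digenic kidneys. The change of the digenic effect from P0 to P3 was called for Dnmt1, the maintenance DNA methyltransferase (-0.78 ± 0.17, adjusted p = 0.026).

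In digenic kidneys of P12 1 of 25 further replication genes was higher than in WT (Rfc3, 0.38 ± 0.12, adjusted p = 0.035) and 1 of 29 further mitosis genes was lower. The latter was Spc25, a subunit of the Ndc80 kinetochore complex, which read 49.8, 45.8 and 52.0 CPM against 78.3, 89.3 and 70.5 CPM in WT (-0.69 ± 0.12, adjusted p = 0.0016). Its Pkd1-RC/RC and Pkhd1-/- libraries read 87.1, 66.3 and 62.1 CPM and 93.2, 96.1 and 97.8 CPM, so every digenic library lay below every other library of that age, and the interaction was called (-0.82 ± 0.17, adjusted p = 0.015). Against Pkhd1-/- kidneys 6 of the 29 were lower, among them Spc25 (-0.96), Smc4 (-0.63) and Hmmr (-1.13), and among the replication genes called lower was Dut (-0.41).

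Of the Myc family, which feeds growth signals into the cycle, Myc read 41.1, 31.4 and 33.0 CPM in digenic kidneys of P12 and 14.9, 13.7 and 16.5 CPM in WT (1.22 ± 0.12, adjusted p = 6.0e-05). The single mutants read 16.7, 16.9 and 19.5 CPM (Pkd1-RC/RC) and 14.1, 11.9 and 14.6 CPM (Pkhd1-/-), and the interaction was called (1.14 ± 0.17, adjusted p = 0.0048). Mycl was higher in digenic kidneys too (0.69 ± 0.18, adjusted p = 0.016), while Mycn fell from P3 to P12 in all 4 genotypes (-2.11 ± 0.17 in WT). From P3 to P12 Myc fell in WT and both single mutants and not in digenic kidneys, and the change of the digenic effect was called (1.01 ± 0.23, adjusted p = 0.018).

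Of 15 measured cell cycle inhibitors and pocket proteins, 3 were higher in digenic than in WT kidneys of P12: Btg1 (0.41 ± 0.09, adjusted p = 0.0055), Cdkn1a (0.37 ± 0.11, adjusted p = 0.031) and Cdkn2b (0.79 ± 0.25, adjusted p = 0.038). Cdkn1a encodes p21, an inhibitor of cyclin-dependent kinases and a target of p53, and read 80.7, 84.3 and 64.4 CPM against 55.4, 63.6 and 57.7 CPM. It was higher at P3 as well (0.40 ± 0.09, adjusted p = 0.04) and fell from P0 to P3 in WT (-0.78 ± 0.18). Cdkn1c, which encodes p57, read 382, 347 and 333 CPM in digenic and 549.8, 604 and 544 CPM in WT kidneys of P0 (-0.67 ± 0.13, adjusted p = 0.044), without overlap. From P3 to P12 5 of the 15 rose in WT kidneys, among them the pocket proteins Rbl2 (0.63) and Rb1 (0.42), and 3 fell. Of 12 p53 targets 2 were higher in digenic kidneys of P12, Zmat3 (0.31) and Eda2r (1.21), and 0 were lower.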

How the data were processed

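Paired-end reads of 150 bp came from an Illumina HiSeq 4000, per the labels' protocols. Reads were aligned by the authors with TopHat2 and Bowtie in MAP-RSeq 2.1.0 to mm10 and counted with featureCounts, per the submitters' design text and processing notes. The authors deposited raw counts per gene for 36 libraries, log2 fold changes with FDR (adjusted p-value) from edgeR, and group means of the raw counts, rounded to whole numbers (a score), which were used only to check the groups and match the counts for all 18049 genes.

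Genes passing filterByExpr (18002 to 18049) were tested on the deposited counts with edgeR 4.0.16 (R 4.3.3, TMM, robust quasi-likelihood). Genotypes were compared within the 12 libraries of an age, and age steps and changes of effect in 1 fit of all 36. P-values were adjusted by Benjamini-Hochberg over all genes, and a gene was called under 0.05. Members and lists were chosen with earlier results of these data known. Named are the called members (up to 20 by smallest adjusted p). Where more were called, the 2 of smallest adjusted p in each role are named, and where fewer than 3 were called, Mki67, Top2a, Ccnd1 and the 3 of smallest p. From each other list up to 3 called genes are named.

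Alternatives were DESeq2 1.42.0, RLE factors, no filter, a replicate block, sex as a term, removal of a gene length trend, other sets of libraries and leaving out each library. Leaving out the libraries with adrenal transcripts was added after seeing the data. All alternatives were examined for the members only. No 2 libraries of a group agreed within sampling noise. On simulated counts with 200 changed genes, the fit for digenic against WT at P12 (18002 genes) recovered 40% of 1.5-fold and 84% of 2-fold changes. That for Pkd1-RC/RC against WT at P0 (18035 genes) recovered 9% and 55%, and that for WT from P3 to P12 (18049 genes) 40% and 80%. Recovery depends on the share of genes changed. In the data the first comparison called 12.0% higher and 11.0% lower and the second 0.0166% higher. The recovered shares are therefore not the sensitivity of the real tests.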

Additional observations from a re-analysis of the deposited data

Results flagged for a closer look

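Of the genes named outside the cell type markers, Dnmt1 and Myc had a digenic effect that differed between ages. The difference itself was tested (edgeR, adjusted over all genes). Cell type markers passed this test too, among them Miox (3.08 ± 0.41, adjusted p = 6.2e-04) from P0 to P3. From P3 to P12 they included Gfra1 (1.28 ± 0.29, adjusted p = 0.015), Itga8 (-0.98 ± 0.26, adjusted p = 0.043) and Uncx (1.34 ± 0.36, adjusted p = 0.045). The digenic effect on Dnmt1 changed by -0.78 ± 0.17 (SE) on the log2 scale from P0 to P3, with an adjusted p of 0.026. The digenic effect on Myc changed by 1.01 ± 0.23 (SE) from P3 to P12, with an adjusted p of 0.018. How either call holds under the alternatives or without single libraries was not examined. The Dnmt1 test includes WT replicate 2 of P0, which was low for the members. The Myc test includes digenic replicates 2 and 3 of P12, which held adrenal transcripts. Neither gene is among the 50 members, of which 0 passed this test by edgeR or by DESeq2. By edgeR 12 members had an unadjusted p under 0.05 for the digenic change from P0 to P3 and 3 for that from P3 to P12.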

How the results depend on the processing

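Of the recomputed counts of called members, 422 stayed within 1.5 times the reported count and 74 did not. The 422 include counts of 0 that stayed 0, and many comparisons had a count of 0. These totals therefore do not show how steady the calls are where members were called. The median log2 fold change of the members against WT moved by no more than the pooled SD of the library means in all 126 recomputations. Leaving out 1 of 3 libraries can hardly exceed that SD, so this is no measure of stability. The median for Pkd1-RC/RC against WT at P12 (-0.283) ran from -0.61 to -0.093 when leaving out 1 library. Medians near 0 changed sign in some recomputations and so give no direction. That of Pkhd1-/- against WT at P0 was 0.002, and -0.109 to 0.072 when leaving out 1 library. That of digenic kidneys from P0 to P3 was 0.012, and -0.058 without the libraries with adrenal transcripts. The counts that moved follow, with the reported count in parentheses.

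At P0 the count of 0 for Pkd1-RC/RC against WT was 1 with DESeq2 and 2 in a fit of all 36 libraries, and that of 0 for digenic against WT was 1 in both. At P12 digenic against WT (3) had 6 with DESeq2, 5 with the replicate block, 1 in the fit of all 36 libraries, 0 without the libraries with adrenal transcripts and 1 to 4 when leaving out 1 library. Digenic against Pkd1-RC/RC (5) had 2 in the fit of all 36, 1 with sex as a term, 1 without adrenal transcripts and 1 to 9 when leaving out 1 library. Digenic against Pkhd1-/- (7) had 12 with DESeq2, 4 with sex, 0 without adrenal transcripts and 2 to 5 when leaving out 1 library. The interaction (1) had 2 with DESeq2, 2 with the replicate block, 0 in the fit of all 36, 0 without adrenal transcripts and 0 to 2 when leaving out 1 library.

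From P0 to P3 WT (20) had 11 when only its 6 libraries were fitted, 10 without adrenal transcripts and 11 to 20 when leaving out 1 library. Pkd1-RC/RC (1) had 0, 0 and 0 to 1 under these, and digenic (2) had 1, 1 and 1 to 2. Pkhd1-/- (7) had 0, 1 and 2 to 8, with 13 by DESeq2, 11 with the replicate block and 13 with sex. The change of the digenic effect (0) had 0 to 1 when leaving out 1 library. From P3 to P12 WT (33) had 18 to 34 when leaving out 1 library, Pkhd1-/- (17) had 37 from its 6 libraries and 11 to 22 when leaving out 1, and digenic (29) had 4 without adrenal transcripts and 15 to 33 when leaving out 1. Except where the set of libraries itself was smaller, the cause was not tested.

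Replicate numbers were not treated as pairs in the main fits. Correlations of same-numbered libraries ran from -0.338 to 0.561 at P0, -0.647 to 0.557 at P3 and -0.279 to 0.264 at P12. Differently numbered libraries were not correlated for comparison, so these values cannot show whether the numbers pair the samples. With the replicate block the other counts stayed within 1.5 times. With 3 libraries per group, 9% to 40% of 1.5-fold and 55% to 84% of 2-fold changes were recovered on simulated counts of 3 comparisons, so an uncalled member is not shown to be unchanged.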
